A study of Rattus norvegicus with 23 samples.

Results

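The question of this comparison was what an injection of lipopolysaccharide (LPS) before hypoxia-ischemia (HI) added to the gene expression of microglia, beyond HI alone. LPS/HI was set against NaCl/HI, which are 12 of the 23 sequenced samples, with 6 in each group. All were Wistar rat pups operated at 7 days of age. LPS/HI pups received LPS intraperitoneally at 0.1 mg/kg, 4 h before the left common carotid artery was ligated, and NaCl/HI pups received saline in its place. Pups of both groups then breathed 8% oxygen for 50 min. After 24 h, cells carrying CD11b/c were pulled out with magnetic beads, and each sample pooled the ipsilateral hemispheres of 2 pups. The 2 groups thus shared the injection, the operation, the hypoxia, the tissue and the pooling, and differed in LPS. Sham and LPS samples, used below for LPS without HI, were the entire brain of 1 pup each, in 6 and 5 samples, and no injection is listed for Sham. The labels call the samples biological replicates.

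LPS is a cell wall component of Gram-negative bacteria. It is sensed by Toll-like receptor 4 with its partner Cd14, which leads to activation of NF-kB and to the transcription of cytokines, chemokines and a set of inhibitors that shut the same pathway down. In the neonatal brain, an inflammatory stimulus before HI is known to enlarge the injury, and microglia, the resident macrophages of the brain, are the first immune cells to respond. The CD11b of the sort is also carried by neutrophils, monocytes and other macrophages, so the beads can take up these cells as well.

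The values are log2 values after the regularised logarithm (rlog) of DESeq2, from which the study removed 3 surrogate variables. They are not scaled to transcript length, so levels are compared between groups and not between genes. The sequencing depth is unknown, and median log2 values of the libraries lay between 7.75 and 7.82. By distance to the group means, 6 of 6 LPS/HI samples and 5 of 6 NaCl/HI samples were nearest to their own group, whereas NaCl/HI replicate 4 was nearest to Sham. Each mean included the sample itself, which draws it toward its own group, so these counts do not measure how far the groups were apart. Without NaCl/HI replicate 4, 19 in place of 41 genes passed an adjusted p of 0.05 in limma. The log2 differences without it were 1.62 for Olfm4 (adjusted p = 0.0412), 1.25 for Selp (adjusted p = 0.0862) and 1.02 for Lcn2 (adjusted p = 0.083, limma).

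The microglial label held in both groups. P2ry12, the purinergic receptor of surveying microglia, had log2 values of 13.44 to 14.09 in LPS/HI and 13.65 to 14.06 in NaCl/HI. Tmem119, a surface protein of microglia, had log2 values of 12.32 to 12.93 and 12.33 to 12.77. Neither passed the test (adjusted p = 0.983 and 0.953, limma).

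LPS before HI changed few genes past the thresholds of the study. The study set them on DESeq2 fits. Here they were set on limma differences of rlog values, which draw low genes toward their mean. Of 20301 genes, 3 were more than 2-fold higher in LPS/HI with an adjusted p under 0.05 (0.0148% of genes), and none was lower by these thresholds. They were Olfm4, Selp and Lcn2. Leaving out 1 sample at a time kept their log2 differences between 1.40 and 1.83 for Olfm4, 1.138 and 1.495 for Selp and 0.89 and 1.16 for Lcn2, but the count of 3 was kept only without LPS/HI replicate 1 or 6, and fell to 0 or 1 without any other sample. Without the fold threshold, 31 genes were higher (0.153%) and 10 were lower (0.0493%), and the median size of their log2 differences was 0.42. In 30 of these 41 genes the samples of the 2 groups did not overlap. Across all genes, 0.901% did not overlap and were higher in LPS/HI, and 0.433% did not overlap and were lower. At an unadjusted p under 0.05 there were 1314 higher genes (6.47%) and 847 lower genes (4.17%), and the median log2 difference of all genes was 0.0037, with 52.5% of all genes higher. This balance turned with the scaling, since 930 of 2195 genes at that level were higher once each library was centred on its median. The counts of list members below stand against these shares.

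**Figure D1:**
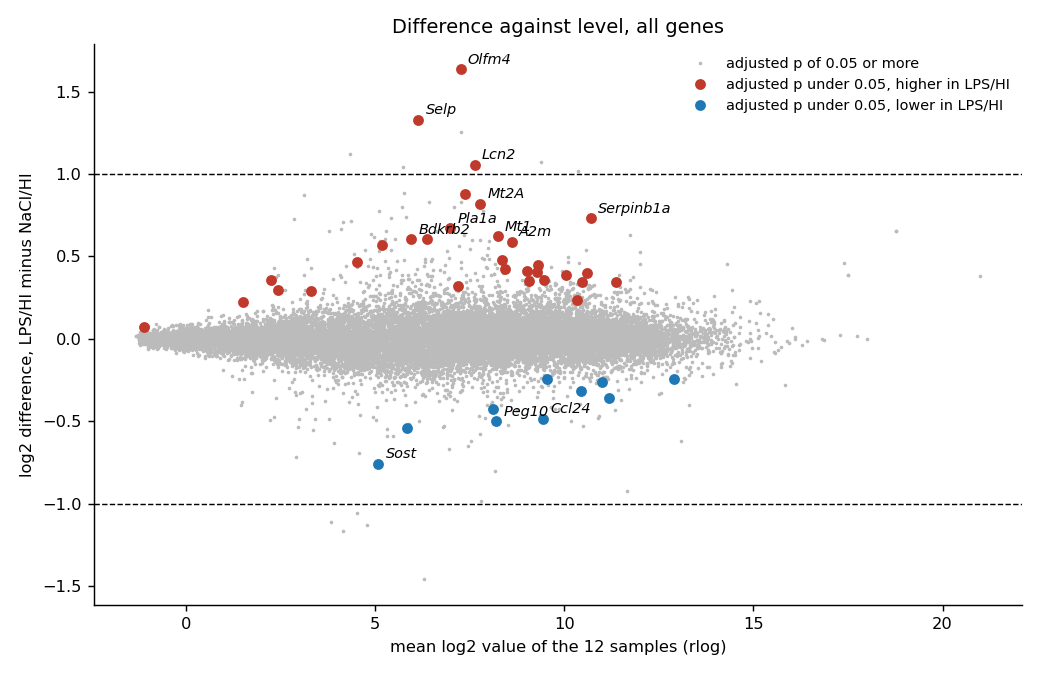
Log2 difference between LPS/HI and NaCl/HI (vertical axis) against the mean rlog value of the 12 samples (horizontal axis) for each gene, with genes of adjusted p under 0.05 in red (higher in LPS/HI) or blue (lower), and dashed lines at a 2-fold difference. Olfm4, Selp and Lcn2 are the red points above the upper line, most other coloured points lie well inside the lines, and grey points beyond the lines did not pass the test.

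The 5′ flanks of 3 of the higher genes are shown because each holds a kB element, the binding motif of NF-kB. They are the 250 bases before the RefSeq start, from rat assembly GRCr8, written 5′ to 3′ in the direction of the gene, with motif matches in capitals. Lcn2 lies at chr3:36081781-36082030 on the minus strand, Olfm4 at chr15:61815981-61816230 on the plus strand and Bcl3 at chr1:88613556-88613805 on the minus strand.
Lcn2: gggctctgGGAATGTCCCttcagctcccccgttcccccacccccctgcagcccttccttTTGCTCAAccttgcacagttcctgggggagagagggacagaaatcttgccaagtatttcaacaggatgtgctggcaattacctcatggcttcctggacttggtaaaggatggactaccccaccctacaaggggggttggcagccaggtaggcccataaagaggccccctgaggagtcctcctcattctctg
Olfm4: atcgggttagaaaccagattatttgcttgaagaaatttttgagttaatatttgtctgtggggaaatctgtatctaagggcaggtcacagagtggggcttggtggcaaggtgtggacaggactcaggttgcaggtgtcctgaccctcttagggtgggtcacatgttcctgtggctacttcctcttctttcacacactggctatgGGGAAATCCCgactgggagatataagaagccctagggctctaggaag
Bcl3: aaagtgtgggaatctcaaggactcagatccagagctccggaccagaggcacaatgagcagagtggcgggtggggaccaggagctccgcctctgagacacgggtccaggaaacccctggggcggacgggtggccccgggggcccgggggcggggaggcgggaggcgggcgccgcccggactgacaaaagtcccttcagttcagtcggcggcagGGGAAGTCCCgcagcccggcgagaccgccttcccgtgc
The kB element begins 242 bases before the start in Lcn2, 47 bases before it in Olfm4 and 38 bases before it in Bcl3. The second run of capitals in Lcn2 is a C/EBP element (TTGCNNAA). Of the 25 named genes that were searched, 19 had a promoter in the RefSeq table, and 3 of the 19 (15.8%) held a kB element on either strand, compared with 3.52% of all 27457 promoters. The C/EBP element was found in 1 of the 19 (5.26% against 9.2%), the STAT element TTCNNNGAA in 2 (10.5% against 7.52%; Pitpnm3 and Ccl24) and the AP-1 element TGANTCA in 2 (10.5% against 6.36%; Mt2A and Dhrs9). A match is a stretch of letters and not a measured binding site.

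Neutrophil granule genes were among the largest differences. Olfm4, olfactomedin 4, is a glycoprotein stored in the specific granules of a subset of neutrophils. Its log2 values in LPS/HI ran from 7.09 over a median of 8.14 to 9.25, and in NaCl/HI from 5.77 over 6.34 to 7.23. The lowest LPS/HI sample therefore lay just below the highest NaCl/HI sample. The difference was 1.63 ± 0.29 on the log2 scale (SE, n = 6 each, 3.1-fold), with an adjusted p of 0.0241 in limma. Within replicates 1 to 3 it was 2.13, and within replicates 4 to 6, whose library names carry later numbers, it was 1.142.

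Lcn2 encodes lipocalin 2, which binds bacterial siderophores and is made by neutrophils, astrocytes and endothelium in inflammation. In LPS/HI its log2 values were 7.64 at the lowest, 8.12 at the median and 8.99 at the highest, and in NaCl/HI they were 6.93, 7.09 and 7.30. The groups did not overlap. Lcn2 was 2.08-fold higher, a log2 difference of 1.06 ± 0.22 (adjusted p = 0.046, limma), and the difference was 1.06 both within replicates 1 to 3 and within replicates 4 to 6. Serpinb1a, an inhibitor of neutrophil elastase and cathepsin G, had values of 10.68, 11.004 and 11.70 in LPS/HI and 10.01, 10.38 and 10.53 in NaCl/HI. It was also without overlap, with a log2 difference of 0.73 ± 0.12 (adjusted p = 0.0185, limma).

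The other granule genes did not pass the test. Of 24 measured genes of neutrophil granule proteins, 19 were higher in LPS/HI, 6 at an unadjusted p under 0.05 against 6.47% of all genes, and the median log2 difference was 0.13, or 0.23 without NaCl/HI replicate 2. Mmp8, the neutrophil collagenase, differed by 1.25 ± 0.32 with an adjusted p of 0.104 (limma). The mean of the list lay between 6.26 and 6.75 in LPS/HI and between 5.93 and 6.43 in NaCl/HI, so 4 of 6 LPS/HI samples were above every NaCl/HI sample. Of 28 genes of the neutrophil surface and its signalling, 26 were higher, 13 of them at an unadjusted p under 0.05, with a median of 0.29, and none passed the adjusted test. Other genes typical of neutrophils differed by unequal amounts. Retnlg differed by 0.88, Pglyrp1 by 0.80, Padi4 by 0.64 and Cd177 by 0.60 (adjusted p from 0.081 to 0.285, limma). Others differed less or were lower. Csf3r, the receptor of the neutrophil growth factor, differed by 0.017 and Fpr1, a formyl peptide receptor, by 0.030. Cxcr2, a chemokine receptor, differed by 0.16, or by 0.027 to 0.263 when 1 sample was left out. Cxcr1 differed by -0.16 and Selplg, the selectin ligand, by -0.17. Of the granule proteins, Mpo, myeloperoxidase, differed by 0.13, Elane, neutrophil elastase, by -0.013, Ltf, lactoferrin, by -0.033 and Ngp by -0.38. The adjusted p of the 9 genes from Csf3r to Ngp ran from 0.573 to 0.95 (limma). LPS/HI replicate 4 had the highest mean of the neutrophil surface list, at 8.30 against 7.48 to 7.95 in the other LPS/HI samples. Without that sample the median of the list was 0.14. The same sample was the highest in Olfm4, Mmp8, S100a8 and S100a9. S100a8 and S100a9 encode the alarmin calprotectin, the main cytosolic protein of neutrophils. S100a8 differed by 1.07 ± 0.30 (adjusted p = 0.135) and S100a9 by 1.02 ± 0.29 (adjusted p = 0.157, limma), and both overlapped between the groups. In samples of sorted cells, more neutrophils and more of these transcripts per cell cannot be told apart. With the mean of the granule list as a covariate, the log2 differences were 1.22 for Olfm4, 0.78 for Selp, 0.79 for Lcn2 and 0.57 for Bdkrb2, and none of the 41 genes passed the adjusted p of limma, while 1773 genes had an unadjusted p under 0.05. This mean was itself higher in LPS/HI and its list holds 3 of the 41 genes, so that fit takes out part of the difference it tests, and its lost calls do not tell cell number from expression. Left out one at a time, NaCl/HI replicates 1 or 2 or LPS/HI replicate 2 each left 1 gene passing, which was Bdkrb2.

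**Figure D2:**
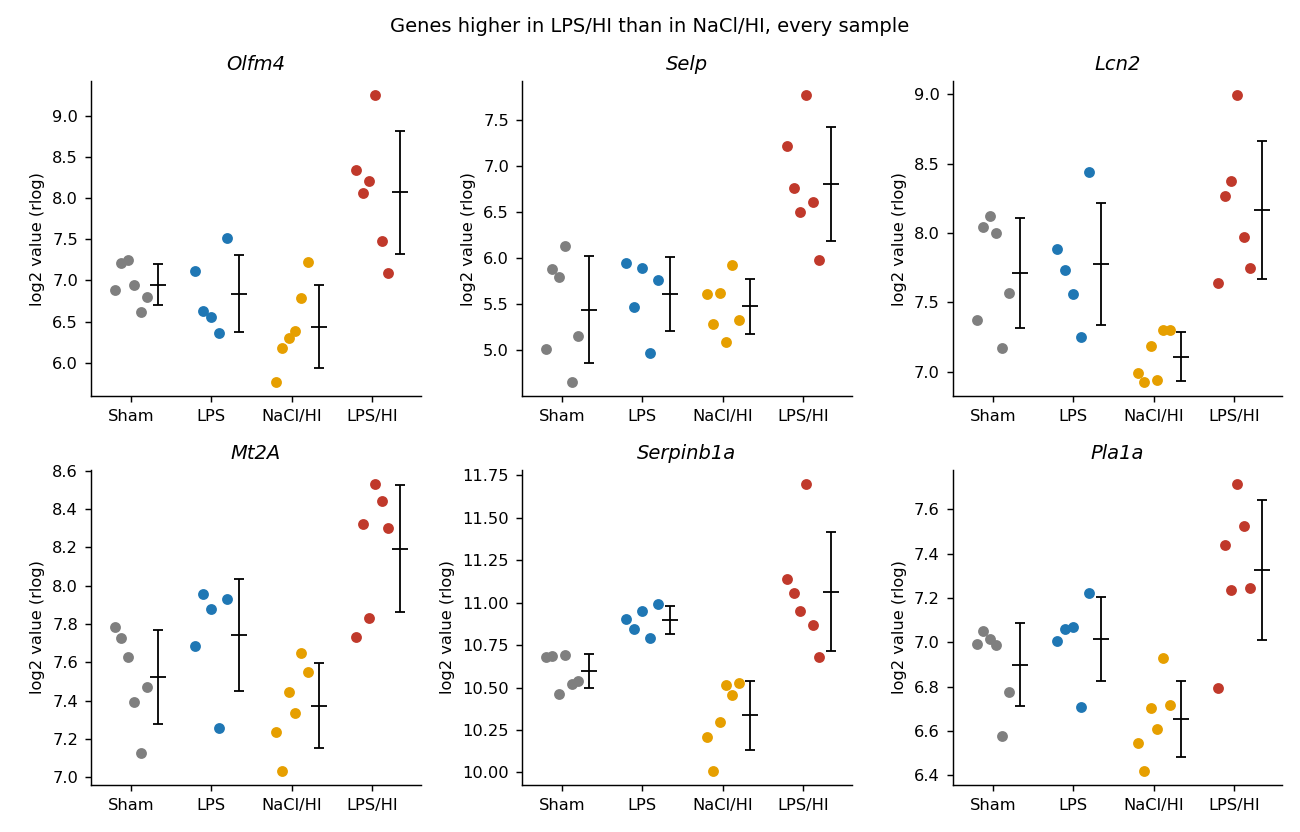
Rlog values (log2, vertical axes, not starting at 0) of 6 genes in every sample of the 4 groups, with black bars for the mean and SD. In Olfm4, Selp and Lcn2 the LPS/HI samples stand above most NaCl/HI samples, and the LPS samples without HI spread over about the range of Sham.

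Selp, Ackr1 and Bdkrb2, which are known from vessels among other cells, were higher as well. Selp encodes P-selectin, which endothelium and platelets expose to catch rolling leukocytes. Its log2 values were 5.98, 6.69 and 7.77 (lowest, median, highest) in LPS/HI and 5.09, 5.47 and 5.93 in NaCl/HI, and the groups touched without overlap. Selp was 2.51-fold higher, a log2 difference of 1.33 ± 0.27 (adjusted p = 0.046, limma), with 1.32 in replicates 1 to 3 and 1.34 in replicates 4 to 6. Ackr1, the atypical chemokine receptor that marks venules and also red cells, ran from 6.59 to 6.73 in LPS/HI and from 5.76 to 6.22 in NaCl/HI. The 6 LPS/HI samples were close to each other and all above NaCl/HI, with a log2 difference of 0.61 ± 0.13 (adjusted p = 0.046, limma).

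Bdkrb2 encodes the bradykinin B2 receptor, which raises vascular permeability. In LPS/HI its values were 6.07, 6.28 and 6.398, and in NaCl/HI 5.52, 5.64 and 5.85. The groups were apart, and the log2 difference of 0.60 ± 0.08 had the lowest adjusted p of all genes (0.00871, limma). It was the only one of the 41 genes that passed whichever of the 12 samples was left out. Ccn1, a matrix protein of injured vessels, was higher by 0.45 ± 0.09 (adjusted p = 0.046) and Adamts9, a matrix protease, by 0.35 ± 0.07 (adjusted p = 0.0445, limma).

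Other adhesion and endothelial genes leaned the same way without passing the test. Sele, E-selectin, differed by 0.74 ± 0.17 with an adjusted p of 0.0759 (limma). Of 23 selectins and adhesion molecules 17 were higher, 9 at an unadjusted p under 0.05 (6.47% of all genes) and none lower at that level (4.17%), with a median log2 difference of 0.09, which was 0.15 without LPS/HI replicate 6. Pecam1, the junction protein CD31, had log2 values of 12.34 to 12.55 in LPS/HI and 12.13 to 12.34 in NaCl/HI, a difference of 0.22 (adjusted p = 0.0575, limma). Of 27 endothelial markers 25 were higher, 14 of them at an unadjusted p under 0.05 and none by the adjusted p, with a median of 0.17, which was 0.11 without LPS/HI replicate 5. Cdh5, the cadherin of endothelial junctions, differed by 0.17 (adjusted p = 0.36), Sox17, an arterial transcription factor, by 0.39 (adjusted p = 0.198) and Ly6c by -0.34 (adjusted p = 0.699, limma). The mean of the endothelial list was 10.19 to 10.51 in LPS/HI and 10.13 to 10.23 in NaCl/HI. With this mean as a covariate the log2 differences were 1.11 for Selp (adjusted p = 0.224), 0.64 for Ackr1 (adjusted p = 0.126) and 0.60 for Bdkrb2 (adjusted p = 0.0302, limma), so that of these 3 only Bdkrb2 still passed. In that fit 5 of the 41 genes passed the adjusted p of limma, among 8 genes in all. The endothelial mean was itself higher in LPS/HI, at 10.33 ± 0.11 against 10.19 ± 0.04 in NaCl/HI (SD, n = 6 in each), so this fit too takes out part of the difference it tests. The markers of pericytes and smooth muscle had a median of 0.03, or from -0.02 (NaCl/HI replicate 6 left out) to 0.08 when 1 sample was left out. None of these 13 had an unadjusted p under 0.05. Platelet markers had a median of -0.05, or from -0.068 to -0.031 when 1 sample was left out, with 8 of 13 lower. The part of endothelial cells in the Selp result was not tested beyond these values.

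The NF-kB genes that passed the test encode products that restrain or shape the pathway. Bcl3 is a nuclear IkB protein that binds NF-kB subunits. Its values were 8.35, 8.57 and 9.05 in LPS/HI and 7.98, 8.14 and 8.26 in NaCl/HI, without overlap, and it was higher by 0.48 ± 0.10 (adjusted p = 0.0445, limma). Tnip1, a partner of the ubiquitin-editing enzyme A20, was higher by 0.24 ± 0.04 (adjusted p = 0.0328), and Birc3, a ubiquitin ligase of the TNF receptor complex, by 0.42 ± 0.09 (adjusted p = 0.046, limma). In Birc3 the groups overlapped through NaCl/HI replicate 4, the highest of its group at 8.55.

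The receptor itself did not pass the test. Tlr4 ranged from 10.08 to 10.46 in LPS/HI and from 10.07 to 10.44 in NaCl/HI (adjusted p = 0.961, limma). Of 28 genes of LPS sensing and NF-kB feedback, 26 were higher, 12 at an unadjusted p under 0.05 (6.47% of all genes) and none lower at that level (4.17%), with a median log2 difference of 0.09. Socs3, the inhibitor of JAK and STAT signalling, ran from 11.61 to 12.85 in LPS/HI and from 11.21 to 11.55 in NaCl/HI. These did not overlap, but with a log2 difference of 0.63 ± 0.15 the adjusted p was 0.0712 (limma). Pim1, a kinase downstream of STAT signalling, did pass, with a log2 difference of 0.35 ± 0.06 (adjusted p = 0.0302, limma).

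Further inflammatory genes passed with small differences. Mefv, the pyrin inflammasome sensor, was higher by 0.41 (adjusted p = 0.0469), Pde4b, a phosphodiesterase that breaks down cAMP, by 0.40 (adjusted p = 0.0395), and Pla1a, a phospholipase, by 0.67 (adjusted p = 0.0389, limma). A2m, the protease inhibitor alpha-2-macroglobulin and an acute-phase protein of the rat, had values of 8.65, 8.93 and 9.17 in LPS/HI against 8.11, 8.31 and 8.52, and was higher by 0.59 ± 0.10 (adjusted p = 0.0185, limma). The means of the acute-phase list did not overlap, at 5.64 to 5.96 in LPS/HI and 5.37 to 5.57 in NaCl/HI, and neither did those of the complement list, at 10.48 to 10.61 and 10.36 to 10.47. No complement gene passed the adjusted test. Il1b, which encodes interleukin-1 beta, differed by 0.45 with overlap (adjusted p = 0.0956), and Cxcl1, a neutrophil attractant, by 0.43 (adjusted p = 0.232, limma). Il1r2, the decoy receptor that binds interleukin-1 without signalling, had values of 7.05, 7.57 and 8.83 in LPS/HI and 6.52, 6.80 and 7.35 in NaCl/HI. The groups overlapped, and the difference of 0.83 ± 0.24 did not pass (adjusted p = 0.15, limma). Of 27 neutrophil chemoattractants, 16 were higher, 9 of them at an unadjusted p under 0.05 (6.47% of all genes), and 11 were lower, 3 of them at that level (4.17%), with a median of 0.04. Csf3, the growth factor of neutrophils, differed by 0.73 (adjusted p = 0.111, limma).

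The metallothioneins, small proteins that bind zinc and copper and are induced by metals, glucocorticoids and oxidative stress, were higher. Mt2A had values of 7.73, 8.31 and 8.53 in LPS/HI and 7.03, 7.39 and 7.65 in NaCl/HI. There was no overlap, and the log2 difference was 0.82 ± 0.15 (adjusted p = 0.0354, limma). Mt1 had values of 7.96, 8.72 and 8.76 against 7.71, 7.95 and 8.20, which overlapped at the lowest LPS/HI sample, and differed by 0.62 ± 0.12 (adjusted p = 0.0389, limma). Of 21 glucocorticoid-responsive genes, a list that contains both metallothioneins and Lcn2, 18 were higher, 10 at an unadjusted p under 0.05, with a median of 0.23. Of 24 NRF2 targets and iron genes 19 were higher, 12 at that level, with a median of 0.11. This list also contains both metallothioneins, its only 2 members that passed the adjusted test. The list means did not overlap (10.22 to 10.36 in LPS/HI, 10.09 to 10.21 in NaCl/HI). Glrx, a glutaredoxin that reduces oxidised protein thiols, was higher by 0.39 ± 0.06 without overlap (adjusted p = 0.0185, limma).

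Genes of mitosis were the group with the most even difference. All 35 measured genes of mitosis and G2/M were higher in LPS/HI, 31 of them at an unadjusted p under 0.05, and in 22 of 35 the samples did not overlap, against 0.901% of all genes. None passed the adjusted test. The median log2 difference was 0.25. The mean of the list was 10.65 to 10.92 in LPS/HI and 10.43 to 10.55 in NaCl/HI, so every LPS/HI sample was above every NaCl/HI sample. Ccnb2, cyclin B2, which drives entry into mitosis, had values of 10.25, 10.30 and 10.53 in LPS/HI and 9.91, 9.96 and 10.09 in NaCl/HI, with a difference of 0.35 ± 0.08 (adjusted p = 0.0606, limma). Top2a, the topoisomerase of chromosome segregation, differed by 0.26 (adjusted p = 0.21) and Mki67, the proliferation antigen, by 0.18 (adjusted p = 0.51, limma), both with a smaller shift than Ccnb2.

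Pttg1, securin, which holds sister chromatids together until anaphase and was not on the list, did pass. Its values were 9.34, 9.47 and 9.68 in LPS/HI and 8.90, 9.12 and 9.16 in NaCl/HI, without overlap, with a log2 difference of 0.40 ± 0.08 (adjusted p = 0.046, limma). The genes of DNA replication and G1/S did not follow. Of 35, 15 were higher and 20 lower, with a median of -0.02, or from -0.027 to -0.0034 when 1 sample was left out. The list means ran from 10.09 to 10.20 in LPS/HI and from 10.10 to 10.21 in NaCl/HI. Mcm2, a subunit of the replicative helicase, differed by -0.09 (adjusted p = 0.678, limma). Only 11 of 44 listed replication-dependent histone genes were measured, and 10 of these 11 were higher, with a median of 0.23.

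**Figure D3:**
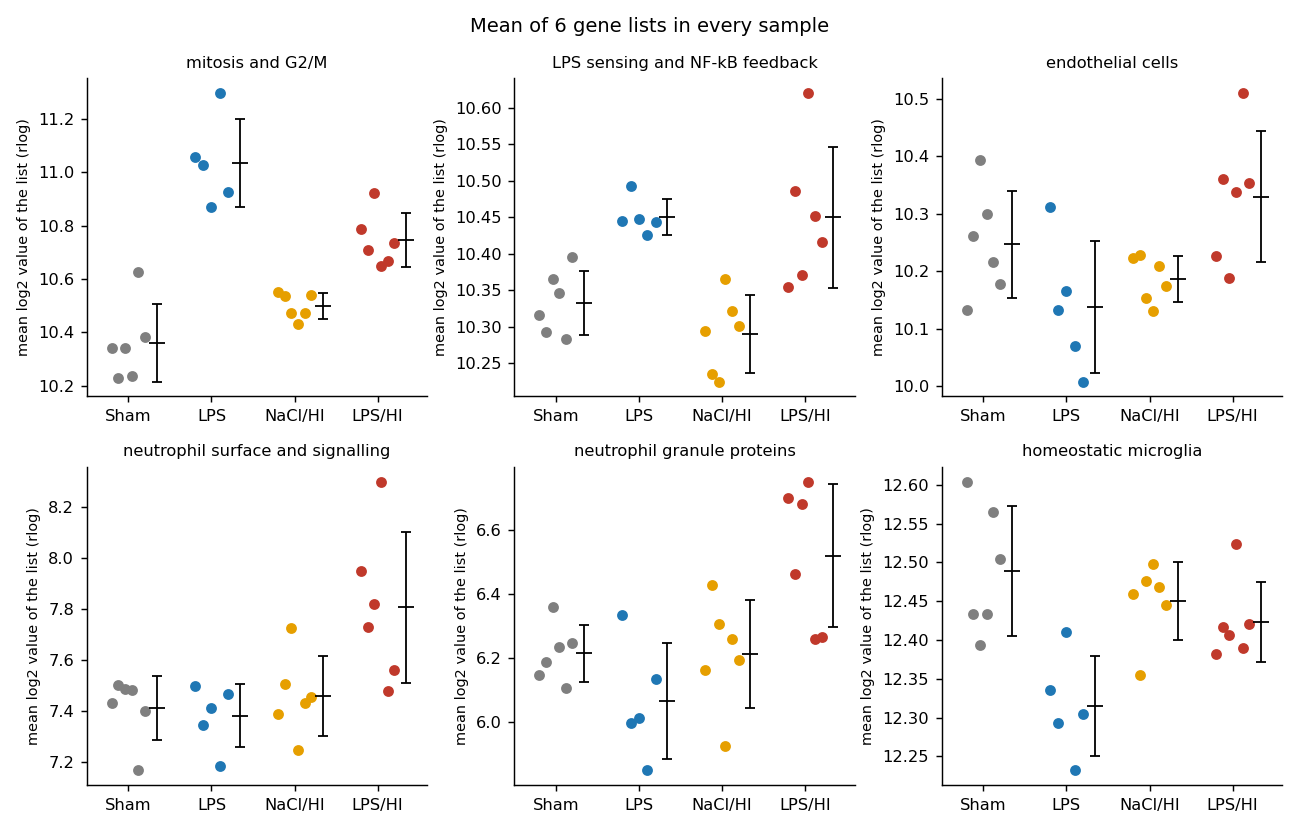
Mean rlog value (log2, vertical axes, not starting at 0) over the measured members of 6 gene lists in every sample, with black bars for the mean and SD. For mitosis and G2/M the LPS/HI samples lie at 10.65 to 10.92 and NaCl/HI at 10.43 to 10.55, whereas in the other lists some samples of the 2 groups overlap.

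Genes outside these groups were also higher. Pcsk1, a convertase of prohormones, had values of 5.26, 5.43 and 5.72 in LPS/HI and 4.69, 4.86 and 5.13 in NaCl/HI. The groups did not overlap, and the log2 difference was 0.57 ± 0.11 (adjusted p = 0.0399, limma). Ggt1, the gamma-glutamyltransferase of glutathione breakdown, was higher by 0.46 ± 0.10 without overlap (adjusted p = 0.046, limma). Depp1 and Pla2g2a, a secreted phospholipase, were each higher by 0.36, Ogfrl1 by 0.34, Gpr18 by 0.32, Ffar2, a receptor of short-chain fatty acids, by 0.30, Bbox1, an enzyme of carnitine synthesis, by 0.29, the unnamed locus LOC102552073 by 0.22 and Tdgf1 by 0.07 (adjusted p from 0.0185 to 0.046, limma).

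The 10 genes that were lower after LPS differ widely in what they do. Sost, which encodes the WNT inhibitor sclerostin, was the lowest, with values of 4.64, 4.69 and 4.79 in LPS/HI and 5.13, 5.54 and 5.67 in NaCl/HI. All LPS/HI samples were below all NaCl/HI samples, and the log2 difference was -0.76 ± 0.13 (adjusted p = 0.0226, limma). Ccl24, eotaxin-2, an attractant of eosinophils made by alternatively activated macrophages, had values of 8.95, 9.20 and 9.45 against 9.44, 9.68 and 9.87. The groups met at one sample, with a difference of -0.49 ± 0.10 (adjusted p = 0.0464, limma). Peg10, an imprinted gene derived from a retrotransposon, was lower by -0.50 ± 0.09 (adjusted p = 0.0354), and Spata31d1b by -0.54 ± 0.10 (adjusted p = 0.0241, limma).

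St3gal5 encodes the sialyltransferase that makes ganglioside GM3. It was lower by -0.32 ± 0.06 (adjusted p = 0.0401), and Dhrs9, a retinol dehydrogenase of macrophages, by -0.36 ± 0.07 (adjusted p = 0.046, limma). Pitpnm3, a membrane-associated phosphatidylinositol transfer protein, was lower by -0.43 ± 0.09 (adjusted p = 0.0445, limma). Ints6l, Smap2 and Ppfia4 were lower by between -0.26 and -0.24. In 8 of the 10 genes the groups did not overlap, the exceptions being Ccl24 and Dhrs9.

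No gene of the microglial state lists passed the adjusted test. Of 27 homeostatic microglia genes 19 were lower, with a median of -0.06, or from -0.086 to -0.037 when 1 sample was left out. At an unadjusted p under 0.05, 6 were lower, against 4.17% of all genes, and 4 were higher. Bin1, a membrane-bending protein, had values of 12.90 to 13.20 in LPS/HI and 13.22 to 13.35 in NaCl/HI, which did not overlap, with a difference of -0.24 (adjusted p = 0.0861, limma). Of 25 genes of disease-associated microglia 17 were lower, 5 of them at an unadjusted p under 0.05, and 2 were higher at that level, with a median of -0.08, or -0.01 without NaCl/HI replicate 3. Tspo, a protein of the outer mitochondrial membrane used as a marker of activated microglia, differed by 0.46 without overlap (adjusted p = 0.106), and Apoe, apolipoprotein E, by -0.015 (adjusted p = 0.964, limma). Spp1, osteopontin, spread from 10.15 to 13.65 in NaCl/HI and from 10.80 to 11.67 in LPS/HI, and the difference of -0.92 ± 0.40 did not pass (adjusted p = 0.402, limma).

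Markers of other cells that the beads could hold did not pass the test either. The median log2 difference was 0.04 over 19 monocyte markers, -0.05 over 14 markers of border-associated macrophages, 0.00 over 14 lymphocyte markers, -0.03 over 16 neuronal markers, 0.14 over 14 astrocyte markers and -0.18 over 16 oligodendrocyte markers, with none passing the adjusted p. Leaving out 1 sample moved the monocyte median between -0.01 and 0.17, the border-associated median between -0.12 and -0.0028, the lymphocyte median between -0.01 and 0.02, the neuronal median between -0.06 and -0.01, the astrocyte median between 0.06 and 0.22 and the oligodendrocyte median between -0.24 and 0.03. The oligodendrocyte median turned positive without NaCl/HI replicate 6, whose list mean was 9.39 against 7.997 to 8.56 in the rest of its group. At an unadjusted p under 0.05, 4 of 19 monocyte and 2 of 14 astrocyte markers were higher, and 12 of 14 astrocyte markers were higher at any p. At an unadjusted p under 0.05, 3 of 14 markers of border-associated macrophages (Lyve1 at -0.34, Stab1 at -0.21 and Dab2 at -0.19) and 2 of 16 neuronal markers (Slc17a7 at -0.50 and Snap25 at -0.35) were lower. Of the 22 markers that the study names, which it chose on these samples and which are not independent evidence, 20 were higher with a median of 0.41. Of 47 oxidative phosphorylation genes 45 were higher with a median of 0.09, but only 4 at an unadjusted p under 0.05, and of 50 ribosomal protein genes 49 were higher with a median of 0.06, but only 2 at that level, which is near or under the 6.47% of all genes. Centring each library on its median moved these 2 medians to 0.07 and 0.04, and leaving out 1 sample moved them down to 0.05 (without NaCl/HI replicate 4) and 0.02 (without LPS/HI replicate 5). Interferon-stimulated genes had a median of 0.06 over 35 genes, or 0.0046 without NaCl/HI replicate 4, and genes of hypoxia and glycolysis of 0.03 over 37, with a range from 6.4e-06 (without NaCl/HI replicate 4) to 0.05 when 1 sample was left out.

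**Figure D4:**
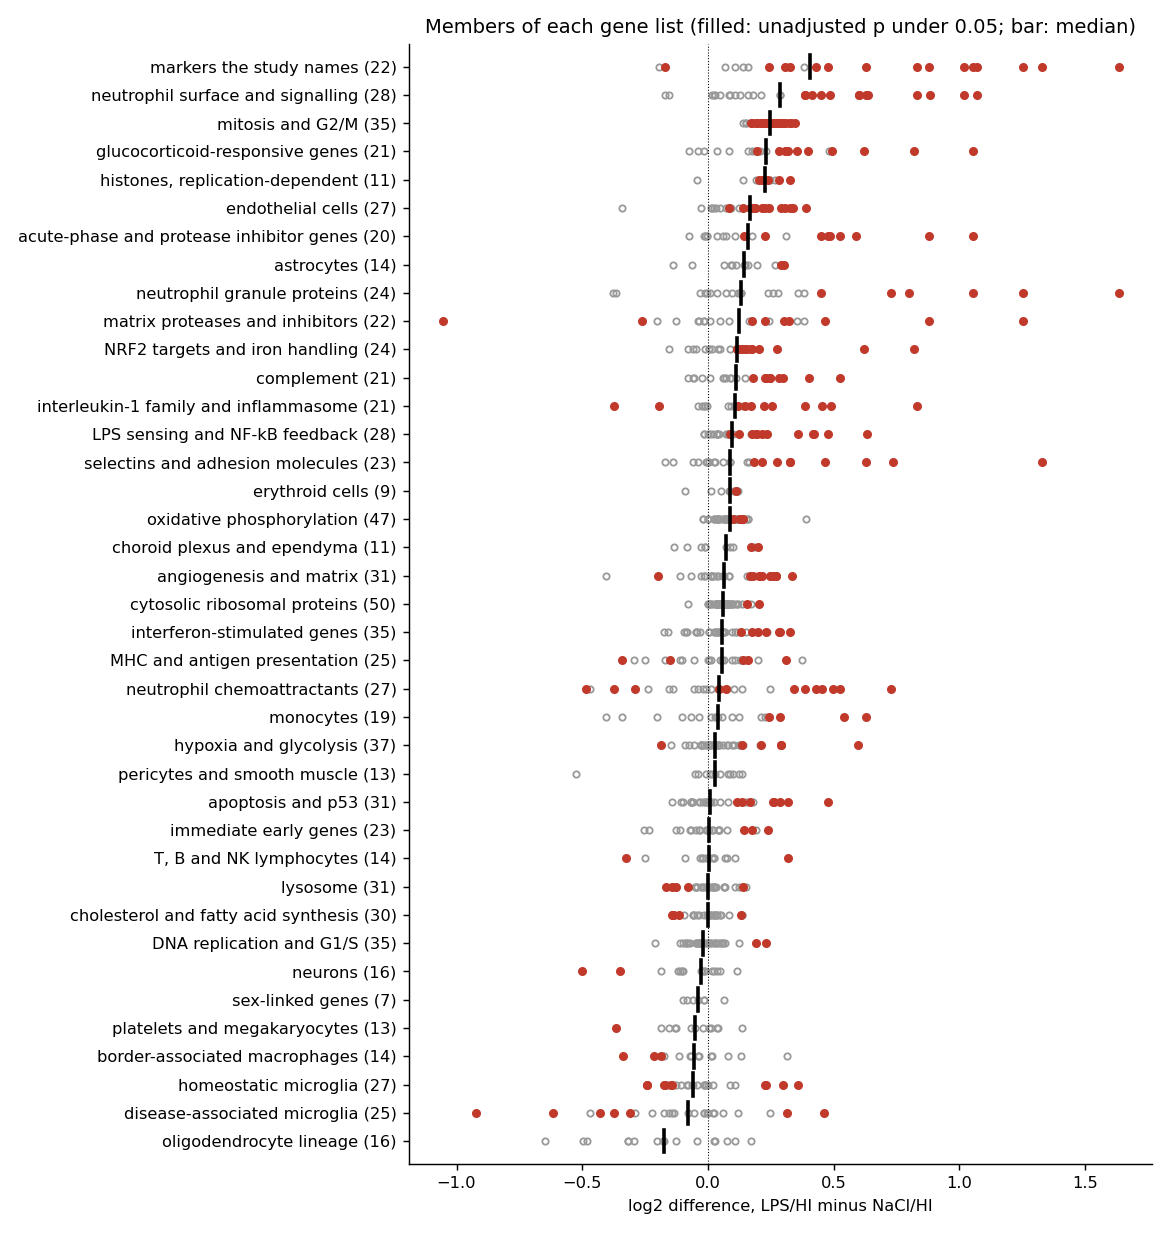
Log2 difference between LPS/HI and NaCl/HI (horizontal axis) for each measured member of 39 gene lists (number of members in brackets), ordered by the median (black bar). Filled points have an unadjusted p under 0.05. All 35 mitosis genes lie right of zero in a narrow band, while the neutrophil and adhesion lists trail out to Olfm4 at 1.63 and Selp at 1.33.

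The same genes were then read in LPS against Sham, where no HI took place and no sample is shared with the comparison above. In that comparison 10.2% of all genes were higher and 7.56% lower by adjusted p. That comparison used entire brains of single pups, and no injection is listed for Sham. Of the 31 genes higher after LPS in HI, 12 were higher after LPS without HI, and of the 10 lower genes 9 were lower there.

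The genes that also moved without HI included the NF-kB genes and the lower genes. Bcl3 was higher by 0.73 in LPS against Sham (adjusted p = 3.47e-05), Birc3 by 0.48 (adjusted p = 0.00109), Pim1 by 0.67 (adjusted p = 1.06e-06) and Mefv by 0.85 (adjusted p = 1.9e-06, limma). Ccl24 was lower by -0.72 (adjusted p = 6.65e-05) and Smap2 by -0.51 (adjusted p = 9.52e-07, limma). St3gal5 was the exception among the lower genes, with -0.03 (adjusted p = 0.814, limma). All 35 mitosis genes were higher without HI by adjusted p, with a median of 0.69 compared with 0.25 in HI.

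The genes with the largest differences in HI did not pass the test without it. Olfm4 differed by -0.11 in LPS against Sham (adjusted p = 0.836), Selp by 0.17 (adjusted p = 0.724), Lcn2 by 0.06 (adjusted p = 0.882) and Mt2A by 0.22 (adjusted p = 0.374, limma). In NaCl/HI against Sham, Olfm4 differed by -0.51 (adjusted p = 0.408), Lcn2 by -0.60 (adjusted p = 0.22) and Selp by 0.037 (adjusted p = 0.965, limma). The means of Olfm4 and Lcn2 in NaCl/HI were thus below Sham. The difference between the 2 LPS effects was itself tested. It passed for 220 of all genes and for 7 of the 41 genes. These 41 were chosen on the difference of LPS/HI from NaCl/HI, which is 1 arm of this contrast, so the choice favours their passing and their count and values are a description. In Olfm4 it was 1.75 on the log2 scale (adjusted p = 0.0465) and in Bdkrb2 0.76 (adjusted p = 0.0121, limma). For Selp it was 1.16 (adjusted p = 0.16) and for Lcn2 0.99 (adjusted p = 0.123, limma), which did not pass.

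Adamts9 moved in opposite directions, higher by 0.35 with HI and lower by -0.33 without it (adjusted p = 0.00438), and the 2 effects differed by 0.68 (adjusted p = 0.0101, limma). In Pttg1 the effect was smaller with HI than without it, by -0.55 (adjusted p = 0.0316), and in Ccnb2 by -0.51 (adjusted p = 0.0316, limma). The tissue taken, the pooling of pups, the lack of a listed injection in Sham and HI cannot be told apart in this last test.

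**Figure D5:**
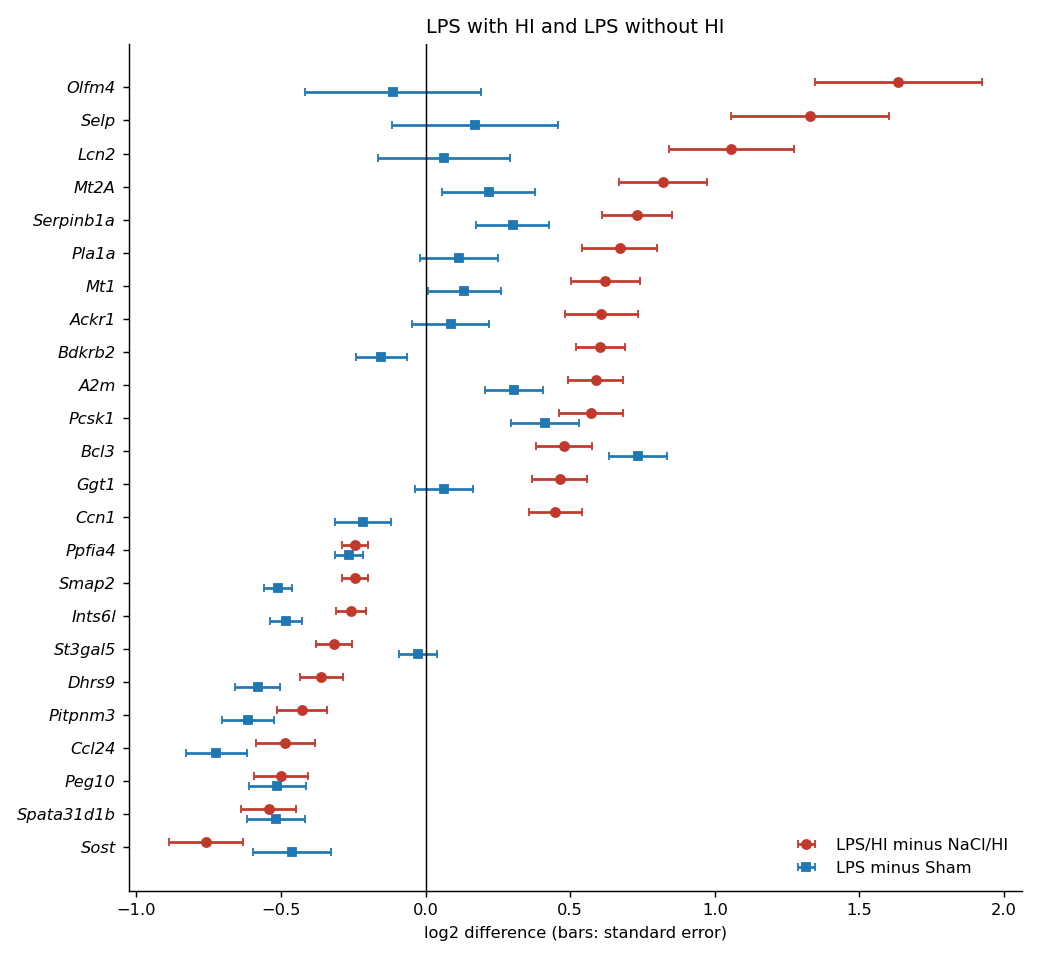
Log2 difference for LPS/HI minus NaCl/HI (red circles) and LPS minus Sham (blue squares) with standard errors, for 24 genes with large differences and an adjusted p under 0.05. In the lower genes the blue squares lie on the same side as the red circles except for St3gal5 near zero, and for Olfm4, Selp and Lcn2 the blue squares lie close to zero.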

How the data were processed

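RNA of CD11b/c-sorted cells was sequenced in 23 samples (6 Sham, 5 LPS, 6 NaCl/HI and 6 LPS/HI). The authors quantified reads with kallisto 0.48.0 on mRatBN7.2 after FastQC 0.11.9 and MultiQC 1.14, summed them to genes, applied the rlog of DESeq2 and removed 3 surrogate variables, and the deposited values are log2 (rlog) values of 20301 genes. Rlog draws low genes toward their mean. Read counts did not enter, which leaves depth unknown and counting error unstated. Samples were grouped by the labels. All 23 samples entered 1 limma 3.58.1 fit (R 4.3.3) with a variance trend and 16 residual degrees of freedom in place of 19, because the removed variables lower the spread within groups, and p-values can still come out too low. They were adjusted by Benjamini-Hochberg over all genes. The script was tested on simulated data. The members, gene lists and tests were chosen with earlier results of these data known, and the list of markers the study names was chosen by the study on these samples. Genes were named from those past both thresholds, the 15 largest differences in each direction among adjusted p under 0.05, markers the study names, and from each list the members past the test, the first 2 and the largest difference in each direction. Not every gene so picked is printed where it did not pass the test. The other genes past the adjusted p, Retnlg, Pglyrp1, Padi4, Cd177, Fpr1, Cxcr1, Ltf, Stab1, Dab2 and Snap25 were named after their values were seen. Results of some single genes that this rule names are not reported here, but all counts include them. Of 20301 symbols 18625 were in the RefSeq gene table and 13939 had a promoter. Alternatives are given with the limits.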

Additional observations from a re-analysis of the deposited data

Results flagged for a closer look

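In 29 of 448 sets of 6 samples (1 gene or list mean in 1 group), 1 sample stood apart from the other 5 by more of the range than Dixon's limit allows, and chance gives about 1 in 20. All values are log2 values. NaCl/HI replicate 4 was the lowest of its group in Bin1 (13.23), Rps4x (7.89), Cyc1 (10.26) and H1f2 (13.03), and the highest in Gp9 (6.161), Birc3 (8.549) and Depp1 (9.65). LPS/HI replicate 1 was the lowest in Apoe (15.58), C1qa (15), H1f2 (13.21) and H3c1 (10.42), and the highest in Ccr2, a receptor of monocytes (8.392), and in the mean of the pericyte and smooth muscle list (9.413). LPS/HI replicate 4 was the highest in Ggt1 (5.099), Slc2a3 (9.336) and the means of the homeostatic microglia (12.52), acute-phase (5.958) and matrix protease (8.758) lists. LPS/HI replicate 3 was the highest in Ccnb2 (10.53), Bbox1 (3.612) and the choroid plexus list (8.022). LPS/HI replicate 5 was the lowest in Gjb6 (7.528) and the highest in Cyc1 (10.75). NaCl/HI replicate 2 was the lowest in the means of the homeostatic microglia (12.35) and neuron (7.057) lists, replicate 6 the lowest in Bbox1 (2.968), replicate 3 the highest in Hif1a (11.75) and Il1r2 (7.354), and replicate 1 the highest in the mean of the antigen presentation list (10.06).

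The log2 effect of LPS differed between HI and no HI by an adjusted p under 0.05 (limma) in 11 of the 184 genes looked at, and in 220 of all 20301 genes. The genes looked at include those chosen on the difference of LPS/HI from NaCl/HI, which is 1 arm of this contrast. That choice favours their passing, so the count is a description. The effect was greater with HI in Olfm4 by 1.747, Bdkrb2 by 0.7569, Adamts9 by 0.6789, Ccn1 by 0.6656, Ecscr by 0.5544 and Tdgf1 by 0.06981. Ecscr, an endothelial surface protein, stands here in the homeostatic microglia list. The effect was smaller with HI in C3, the central complement protein, by -0.9934, in the linker histones H1f1 by -0.5987 and H1f2 by -0.3918, in Pttg1 by -0.5539 and in Ccnb2 by -0.5117. The tissue taken, the pooling of pups, the lack of a listed injection in Sham and HI cannot be told apart here.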

How the results depend on the processing

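The counts below are, in this order, genes past both thresholds, genes with an adjusted p under 0.05 and genes with an unadjusted p under 0.05, which were 3, 41 and 2161 as reported. With the degrees of freedom not lowered they were 9, 243 and 2778, without the variance trend 0, 11 and 2157, with robust variances 0, 37 and 2123, with only the 2 groups in the fit 0, 13 and 1830, and with a term for replicates 1 to 3 against 4 to 6 they were 1, 22 and 2087. They were 1, 31 and 2195 with libraries centred on their median, where 930 of the 2195 were higher against 1314 of the 2161, and 1, 24 and 2130 after quantile normalization. Array weights gave 13, 1995 and 5221. Array weights by REML, which stopped before convergence, gave 14, 2932 and 6051, and leaving out NaCl/HI replicates 3 and 4 and LPS/HI replicate 1 together gave 0, 36 and 2369. These last 2 were chosen after seeing the data. The exact Wilcoxon test gave 0, 0 and 2067, and a fold above 1.5 gave 12 genes past both thresholds. Leaving out 1 sample gave 0 to 3, 1 to 134 (134 without LPS/HI replicate 1) and 1622 to 2922. Replicate numbers did not pair the samples, since 2 of 6 same-numbered pairs correlated above 0.1 (range -0.176 to 0.47). A replicate block gave 0, 8 and 1732. No gene of the 41 changed direction in any of these. Among the markers the study names, S100a11 became lower in LPS/HI with array weights (-0.0847; -0.108 by REML), with the granule list (-0.330) or the endothelial list (-0.0852) as a covariate, in replicates 1 to 3 (-0.364), and without NaCl/HI replicate 4 or 6 (-0.0574 and -0.0164, from a range up to 0.199). Slpi did so with array weights (-0.0160; -0.0542 by REML), the granule list (-0.332) and in replicates 1 to 3 (-0.0418), Cxcr2 with REML weights (-0.00222), the granule list (-0.194) and in replicates 1 to 3 (-0.0242), Mmp9 with the granule list (-0.193), Il1r1 with the endothelial list (-0.0177) and Nlrp3 in replicates 4 to 6 (-0.0302). None of these markers had passed the test, and the cause was not tested. What the depth limits cannot be given without counts.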

Other observations

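Some genes with large differences did not pass the test, and those named here were chosen after their values were seen. Tph1, the first enzyme of melatonin and peripheral serotonin synthesis, had log2 values of 4.41 to 6.17 in LPS/HI and 6.29 to 7.72 in NaCl/HI. The groups did not overlap, and the difference of -1.46 had an adjusted p of 0.0606 (limma). Genes typical of photoreceptors and pinealocytes had lower means beside it, with log2 differences of -1.13 in Gnat2, the cone transducin, -1.11 in Rbp3, which carries retinoids, -0.72 in Aipl1, -0.70 in Pde6g, -0.63 in Impg2 and -0.47 in Crx, their transcription factor. Asmt and Aanat, the last enzymes of melatonin synthesis, differed by -0.15 and 0.03. None of these passed an adjusted p of 0.05.

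Ifitm6, a membrane protein of myeloid cells, differed by 1.12 (adjusted p = 0.0759, limma), with values of 4.10 to 6.24 in LPS/HI and 3.31 to 4.31 in NaCl/HI. Gpnmb, a glycoprotein of phagocytic microglia, had values of 12.58 to 13.09 in LPS/HI and 12.51 to 13.84 in NaCl/HI, and 5 of 6 NaCl/HI samples were above all LPS/HI samples (difference -0.62, adjusted p = 0.109, limma). Mmp12, the macrophage elastase, differed by -1.05 (adjusted p = 0.232, limma) with wide spread in NaCl/HI, from 3.74 to 6.38.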
